A study of Mus musculus with 4 samples.

Results

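Imprinted genes are expressed mainly from a single parental allele, and several of them set the size of the fetus and the supply of growth factors to its tissues. The 10 imprinted growth genes described here were H19, Dlk1, Meg3, Peg3, Plagl1, Mest, Grb10, Peg10, Ndn and Sgce. They were taken by name, through array probes assigned to a RefSeq transcript of these genes. All 10 of the 10 genes had a probe, with 24 probes on 33 spots, among 37042 genes or unnamed transcripts on the array. The array files carry accessions, which were matched to gene symbols through the RefSeq table of GRCm38.p6. The 5 probes of H19 carry no such accession but the name H19 itself in the files. The array also holds probes named by an accession outside that table that may read H19. They were not used, so the 5 may not be all H19 probes.

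RNA was measured in primary chondrocytes of 6-day-old C57BL/6J mice on 4 Agilent arrays with 1 dye, 1 array for each combination of genotype and treatment. Rela encodes the p65 subunit of NF-κB, and all animals carried floxed Rela alleles (Rela fl/fl). Control cells came from Rela fl/fl mice, and the groups labelled cKO from Prrx1-Cre; Rela fl/fl mice, whose Cre is driven by a promoter active in limb mesenchyme, and no group with Cre and intact Rela was analysed here. Cells were cultured for 3 days with 10 ng/mL tumour necrosis factor (TNF), a cytokine that activates NF-κB, or without it (0 ng/mL). How many animals gave each culture is not given in the sources used here. The 2 questions of the design were what TNF changed within a genotype and what differed between the genotypes under the same treatment.

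With 1 array per group there was no replicate culture, so the groups are described without a test and no p-value is given. Signals are intensities divided by the 75th percentile of their own array, so a signal of 1 is that percentile, and the number of arrays limits the precision. Differences are log2 ratios of signals. Their only measurable error was technical. It came from 399 probes with 10 spots each, of which the 173 to 215 well above background on an array were used. The SD of a difference of a single spot between 2 arrays was 0.14 on the log2 scale. For a single spot 2 SD was 0.28, which is the limit meant below by 2 technical SD. The same limit was 0.17 for probes with a signal of 1 or more and 0.42 for probes with a signal under 1. These limits take the spots of 2 arrays as independent. Differences of the same spot varied less, with an SD of 0.10 to 0.11 over all these probes, 0.05 to 0.06 for bright and 0.18 to 0.19 for dim ones, so the limits are wide. None of them includes the spread between cultures or animals.

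Facts of the whole set of arrays bear on all values below. The array signal of Rela was 28.4 in control cells, 34.9 in control cells with TNF, 34.0 on the cKO-labelled array and 40.2 on the cKO-labelled array with TNF, so it does not show the deletion. Where that probe lies relative to the floxed exons is not given in the sources used here, so the 2 arrays of that genotype go by their label here. The Y-linked genes Ddx3y and Eif2s3y were higher on the cKO-labelled arrays, by 1.49 and 1.81 without TNF. They were well above background on both control arrays too, with signals of 1.31 and 1.30 for Ddx3y and 1.78 and 1.84 for Eif2s3y. Xist was well above background on both control arrays and on no other. Sex and genotype therefore cannot be told apart. All 10 chondrocyte markers were well above background on all 4 arrays, with Col2a1 signals from 584 to 610. The leukocyte marker Ptprc, the endothelial markers Cdh5 and Tek, and the muscle markers Myod1, Myog, Myf5, Pax7 and Ckm were not well above background on any array. Other genes of these lists were well above background on all 4, namely Itgam, Csf1r, Lyz2, Cd14 and Adgre1 (leukocyte), Kdr and Pecam1 (endothelial), and Acta1 and Tnnt3 (muscle). From 1.04% to 10.7% of the spots of an array lay in a patch, meaning that 3 or more neighbouring spots were bright on that array alone. A spot in a patch need not be bright itself, and 7 of the 24 probes had a spot in a patch.

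In mice, H19, Meg3 and, outside the brain, Grb10 are known as maternally expressed genes, and the other members as paternally expressed genes. Paternally expressed genes such as Dlk1, Peg3 and Mest are known to favour growth before birth, whereas H19 and Grb10 restrain it. Many imprinted genes are abundant before birth and are shut down as tissues mature. An expression array sums both alleles, so the values below say nothing about which allele was read.

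Sequences upstream of the start sites are shown for Peg3, Dlk1 and Grb10, whose brightest probe passed 2 technical SD in at least 1 comparison and which had an entry among the RefSeq promoters of GRCm38.p6. Each run is the 250 bases before an annotated start, 5′ to 3′, with every CpG, the dinucleotide that carries the methyl marks of imprinting, in capitals. Grb10 is shown at 2 starts because they differ in CpG content.
Peg3, chr7:6730420-6730669, minus strand, 8 CpG: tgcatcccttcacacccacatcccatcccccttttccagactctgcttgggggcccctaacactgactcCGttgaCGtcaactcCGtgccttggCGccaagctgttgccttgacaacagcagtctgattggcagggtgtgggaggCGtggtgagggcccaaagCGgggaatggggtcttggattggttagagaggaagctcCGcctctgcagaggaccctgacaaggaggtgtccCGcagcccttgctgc
Dlk1, chr12:109452573-109452822, plus strand, 8 CpG: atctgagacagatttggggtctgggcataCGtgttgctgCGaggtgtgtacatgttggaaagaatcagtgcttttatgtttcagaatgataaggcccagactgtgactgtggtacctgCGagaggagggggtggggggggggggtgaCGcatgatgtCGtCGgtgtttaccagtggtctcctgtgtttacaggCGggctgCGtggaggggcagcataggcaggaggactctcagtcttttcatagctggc
Grb10, chr11:12037421-12037670, minus strand, 40 CpG: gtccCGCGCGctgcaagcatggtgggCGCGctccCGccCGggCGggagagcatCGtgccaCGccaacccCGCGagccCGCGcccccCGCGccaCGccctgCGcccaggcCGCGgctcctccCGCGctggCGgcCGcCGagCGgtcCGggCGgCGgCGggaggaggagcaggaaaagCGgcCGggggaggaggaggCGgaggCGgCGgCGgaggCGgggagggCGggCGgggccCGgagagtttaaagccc
Grb10, chr11:12027972-12028221, minus strand, 8 CpG: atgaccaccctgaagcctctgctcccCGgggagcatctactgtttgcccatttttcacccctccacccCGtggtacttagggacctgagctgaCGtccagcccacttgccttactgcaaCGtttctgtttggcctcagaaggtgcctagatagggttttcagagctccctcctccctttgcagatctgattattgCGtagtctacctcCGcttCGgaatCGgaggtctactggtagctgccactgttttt
The windows of Peg3, Dlk1 and the second Grb10 start held 8 CpG each, near the median of 6 over 32851 promoter windows of the same length, whose quartiles were 2 and 16. The first Grb10 window held 40 CpG, more than 98.7% of all windows. The NF-κB (kappaB) consensus motif was searched on both strands. It matched 3.90% of all windows and none of the 11 windows of the 7 members with an entry (Mest, Peg3, Ndn, Plagl1, Grb10, Dlk1 and Meg3). A missing match says only that these letters are not in these 250 bases.

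All 24 probes were well above background on all 4 arrays and none had an outlier spot, so every member had a measured value in every group. The plot of all probe signals gives them side by side. No member differed by 2-fold in any of the 4 comparisons. The differences of the brightest probes that passed both the limit of 0.28 and the limit for probes of their signal were as follows. With TNF, Peg3 was lower in both genotypes, and Grb10 and Peg10 were lower in control cells. Dlk1 and Peg3 were lower on the cKO-labelled arrays with and without TNF, and Grb10 and Peg10 were higher there with TNF. Differences of H19 between the genotypes, and of Mest between the genotypes with TNF, passed only the limit of 0.17 for bright probes. So did those of Meg3 and Ndn with TNF on the cKO-labelled arrays. The Mest value is a mean over 10 spots, for which the limits of a single spot are too wide. With TNF on the cKO-labelled arrays Mest differed by -0.14, with spots from -0.16 to -0.11.

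**Figure D1:**
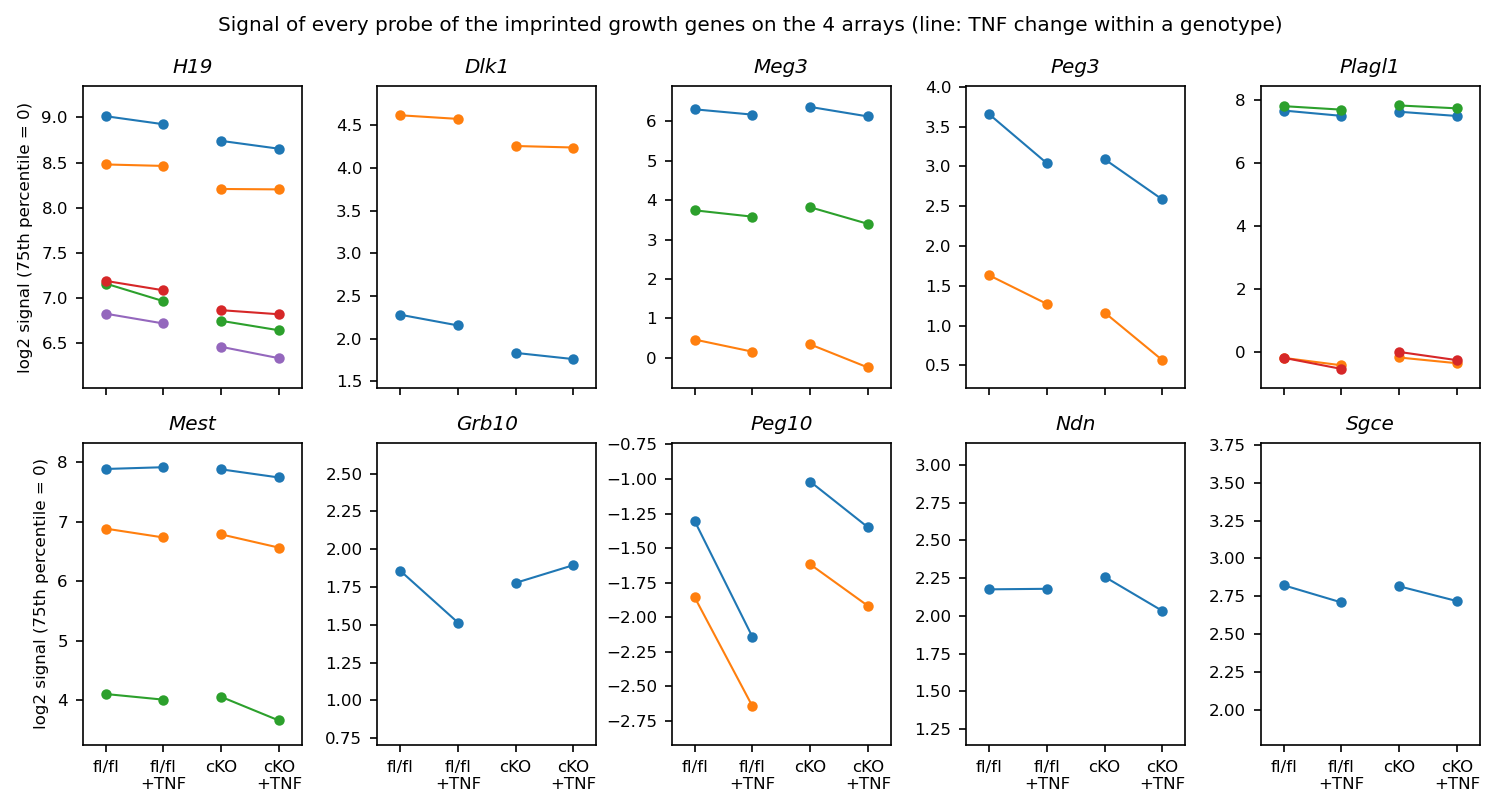
Log2 signal (0 is the 75th percentile of the array) of each of the 24 probes of the 10 imprinted growth genes on the 4 arrays, 1 panel per gene and 1 colour per probe, with 1 array per group and no error bars. Lines join the arrays without and with TNF of a genotype; the 5 H19 probes and both Dlk1 probes sit lower on both cKO-labelled arrays, and both Peg10 probes drop most in control cells.

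H19, a long noncoding RNA of the Igf2 locus that also carries a microRNA, was read by 5 probes. Its brightest probe had a signal of 516 in control cells, 486 in control cells with TNF, 428 on the cKO-labelled array and 403 on the cKO-labelled array with TNF. The cKO-labelled arrays were the lower ones whatever the treatment. The genotype difference of this probe was -0.27 without TNF and -0.27 with TNF, just inside the limit of 0.28 over all spots and outside that of 0.17 for bright probes. Over the 5 probes it ran from -0.41 to -0.27 without TNF and from -0.38 to -0.26 with TNF, so all 5 probes used were lower. The probes with the largest differences included 1 whose spots lay in patches on both cKO-labelled arrays. TNF differences of H19 were smaller, from -0.19 to -0.02 over the probes in control cells and from -0.13 to -0.0045 on the cKO-labelled arrays, all inside 2 SD over all spots. The largest of them (-0.19, from the probe with a signal of 143 in control cells) lay outside the 0.17 of bright probes.

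Meg3, the long noncoding RNA downstream of Dlk1, was read by 3 probes that disagreed in size. The brightest had a signal of 78.8 in control cells, 71.8 with TNF, 82.3 on the cKO-labelled array and 69.6 there with TNF. Both arrays with TNF were thus the lower ones, by -0.13 in control cells and -0.24 on the cKO-labelled arrays. The dimmest probe, whose signals were 1.38, 1.11, 1.27 and 0.844 in the same order, gave -0.31 and -0.59. The middle probe gave -0.16 and -0.42. All 3 probes were lower with TNF in both genotypes, but the size of the difference depended on the probe by up to 0.34. Spots of the brightest probe lay in a patch on the control array with TNF, and spots of the middle probe in a patch on the control array without TNF. Between the genotypes without TNF, the brightest, middle and dimmest probes differed by 0.06, 0.08 and -0.12. With TNF the same probes differed by -0.05, -0.18 and -0.40, of which the last passed 2 technical SD over all spots but not the 0.42 of probes with a signal under 1, as it had there.

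Dlk1 encodes a transmembrane protein of the Delta family that holds precursor cells back from adipocyte differentiation. Its brighter probe had a signal of 24.5 in control cells, 23.8 with TNF, 19.1 on the cKO-labelled array and 18.9 there with TNF. Its dimmer probe had signals of 4.86, 4.46, 3.57 and 3.39 in the same order. On both probes the cKO-labelled arrays were the lower ones and TNF made little difference. The genotype difference was -0.36 and -0.45 on the brighter and dimmer probe without TNF, and -0.34 and -0.39 with TNF, all past 2 technical SD. The TNF difference of the brighter probe was -0.04 in control cells and -0.02 on the cKO-labelled arrays, inside the technical spread.

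Peg3, a zinc finger protein known for its part in growth and maternal behaviour, differed both with TNF and between the genotypes. Its brighter probe had a signal of 12.6 in control cells, 8.22 with TNF, 8.52 on the cKO-labelled array and 6.00 there with TNF. The control array without TNF was the highest and the cKO-labelled array with TNF the lowest, and the other two lay close together. TNF differences were -0.62 in control cells and -0.51 on the cKO-labelled arrays, and genotype differences were -0.57 without TNF and -0.46 with TNF. The dimmer probe had signals of 3.10, 2.42, 2.24 and 1.48 in the same order of arrays. It gave TNF differences of -0.36 and -0.60 and genotype differences of -0.47 and -0.71. Every one of these differences passed 2 technical SD on both probes. The promoter window of Peg3 printed above held no kappaB match.

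Plagl1, a zinc finger transcription factor also called Zac1, was read by 4 probes. The brightest had a signal of 226 in control cells, 209 with TNF, 229 on the cKO-labelled array and 215 there with TNF. All 4 probes were lower with TNF, by -0.35 to -0.11 in control cells and by -0.26 to -0.09 on the cKO-labelled arrays. The largest of these came from probes with a signal under 1, where 2 technical SD is 0.42. Genotype differences of the brightest probe were 0.02 without TNF and 0.04 with TNF, inside the technical spread. Over the 4 probes they ran from -0.04 to 0.19 without TNF and from -0.0042 to 0.28 with TNF, where the highest came from a probe with a signal under 1 and lay inside the 0.42 of dim probes. A spot of 3 of the 4 probes lay in a patch on 1 array.

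Mest, which encodes an enzyme-like protein of the alpha/beta hydrolase fold, had the most precise value. Its brightest probe had 10 spots on each array. The mean signal was 237 ± 10.6 (SD over 10 spots) in control cells and 242 ± 12.0 with TNF. On the cKO-labelled arrays it was 236 ± 8.94 without TNF and 215 ± 9.40 with TNF. The cKO-labelled array with TNF had the lowest mean, and the spots of all 4 arrays overlapped. On the same spots, differences with TNF ran from 0.0048 to 0.06 in control cells and from -0.16 to -0.11 on the cKO-labelled arrays. Between the genotypes they ran from -0.04 to 0.05 without TNF and from -0.22 to -0.12 with TNF. The TNF difference was 0.03 ± 0.02 (SD over 10 spots) in control cells and -0.14 ± 0.02 on the cKO-labelled arrays. The genotype difference was -0.0059 ± 0.03 without TNF and -0.17 ± 0.03 with TNF. These SDs describe spots of 1 RNA preparation, not cultures. The other 2 probes were lower with TNF in control cells as well, by -0.15 and -0.09, and differed by -0.22 and -0.40 with TNF on the cKO-labelled arrays. They also had their lowest signal on the cKO-labelled array with TNF, with genotype differences of -0.17 and -0.35 there.

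Grb10 encodes an adaptor protein that binds the insulin and IGF1 receptors and dampens their signalling, and was read by 1 probe. Its signal was 3.63 in control cells, 2.86 with TNF, 3.43 on the cKO-labelled array and 3.72 there with TNF. The control array with TNF stood below the other 3. The TNF difference was -0.34 in control cells and 0.12 on the cKO-labelled arrays, so the signs were opposite. The genotype difference was -0.08 without TNF and 0.38 with TNF. Both the TNF difference in control cells and the genotype difference with TNF use the control array with TNF.

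Peg10 is a gene derived from a retrotransposon and needed for placental growth. It differed most of the members with TNF in control cells and between the genotypes with TNF. Peg3 differed more with TNF on the cKO-labelled arrays and between the genotypes without TNF. With normexp background correction Peg3 also differed more with TNF in control cells (-0.61 against -0.55). The brighter Peg10 probe had a signal of 0.405 in control cells, 0.227 with TNF, 0.494 on the cKO-labelled array and 0.393 there with TNF. The other probe had signals of 0.276, 0.160, 0.326 and 0.265 in the same order. On both probes the control array with TNF was the lowest and the cKO-labelled array without TNF the highest. In control cells the TNF differences were -0.84 and -0.79 on the 2 probes, which leaves 0.559 and 0.579 times the signal without TNF. On the cKO-labelled arrays the TNF differences were -0.33 and -0.30. With TNF, the genotype differences were 0.79 and 0.73, or 1.73 and 1.65 times the control signal. Without TNF they were 0.29 and 0.24. The probes are dim, and at their signal 2 technical SD is 0.42, which the differences that involve the control array with TNF passed and the others did not.

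Sgce, which encodes epsilon-sarcoglycan of the dystrophin-associated complex, is the neighbour of Peg10 on chromosome 6. Its single probe had a signal of 7.08 in control cells, 6.54 with TNF, 7.04 on the cKO-labelled array and 6.58 there with TNF. The arrays of the 2 genotypes lay within 0.01 of each other under either treatment. TNF differences were -0.11 and -0.10, inside the technical spread.

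Ndn encodes necdin, a protein of the MAGE family that restrains cell division in neurons, and was read by 1 probe. Its signal was 4.52 in control cells, 4.53 with TNF, 4.79 on the cKO-labelled array and 4.09 there with TNF. The cKO-labelled array with TNF was the lowest, by -0.23 against the array without TNF and by -0.15 against control cells with TNF. Both lay inside 2 SD over all spots, and the former lay outside the 0.17 of bright probes.

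The plot of the 4 differences by probe sets the members beside each other. With TNF in control cells, 0 of 10 members passed 2-fold, against 6.66% of 23406 genes. At a 1.5-fold limit 2 members passed, Peg3 and Peg10, against 10.8% of genes. Peg3 no longer passed that limit as a mean over probes (-0.49), nor Peg10 with normexp background correction (-0.55). By more than 2 technical SD, 3 of 10 were lower (Peg3, Grb10 and Peg10) against 9.54% of the 20481 genes well above background on all arrays, and 0 were higher against 9.31%. Of the 10 members, 8 had a difference below 0, as had 47.5% of all these genes, and their median was -0.11 beside 0.0089.

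On the cKO-labelled arrays, 0 of 10 members passed 2-fold with TNF against 5.03% of 24902 genes, and 0 passed 1.5-fold against 10.7%. Peg3 and Peg10 were lower by more than 2 technical SD, 2 of 10 against 10.4% of genes, and 0 were higher against 10.3%. The Peg10 value (-0.33) lay inside the 0.42 of dim probes. Here 9 of 10 differences were below 0, against 36.8% of the genes well above background on all arrays, with a median of -0.12 beside 0.06. Over genes well above background on 1 or both arrays, the median moved from 0.05 to -0.06 when the authors' scaled values were used, and the members' median moved with it to -0.23.

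Between the genotypes without TNF, 0 of 10 passed 2-fold against 7.67% of 24276 genes, and 0 passed 1.5-fold against 13.5%. Dlk1 and Peg3 were lower by more than 2 technical SD, 2 of 10 against 10.6%, and Peg10 was higher, 1 of 10 against 13.7%, although its 0.29 lay inside the 0.42 of dim probes. With TNF, 0 of 10 passed 2-fold against 4.25% of 24511 genes, and 1, Peg10, passed 1.5-fold against 10.1%, though not with normexp background correction (0.57). Dlk1 and Peg3 were again lower by more than 2 technical SD, 2 of 10 against 9.66%, and Grb10 and Peg10 were higher, 2 of 10 against 13.9%. The members' median was -0.0063 without TNF and -0.10 with TNF, beside 0.0031 and 0.05 over the genes well above background on all arrays. Without scaling the members' medians were 0.04 and -0.16, so the first changed sign. With 10 genes, a share is a step of 1 gene, and these shares describe the members only.

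**Figure D2:**
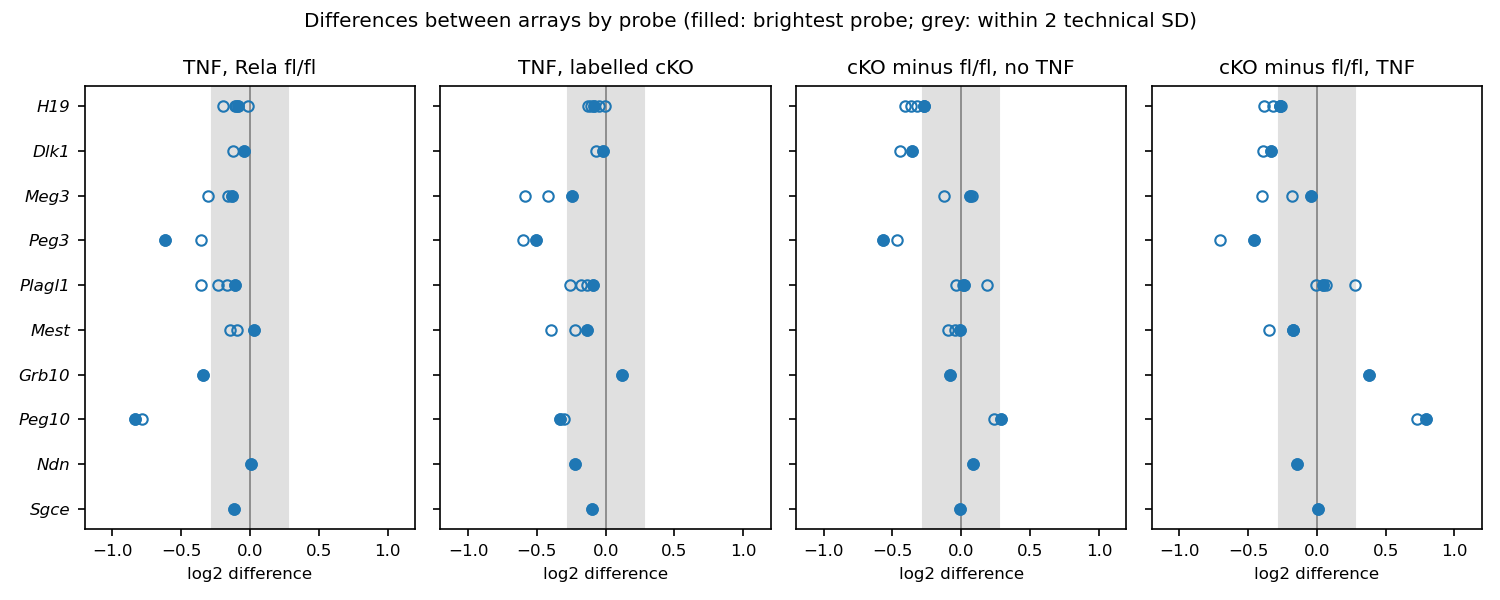
Log2 difference of each probe of the imprinted growth genes in the 4 comparisons, 1 panel per comparison, with the brightest probe of a gene filled, the other probes open, and the grey band marking differences within 2 technical SD (0.28). No point reaches 2-fold (1 on this axis), and the brightest Peg10 probe lies farthest out with TNF, at -0.84 in control cells and 0.79 between the genotypes.

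The change with TNF was also compared between the genotypes, as the TNF difference on the cKO-labelled arrays minus that in control cells. For this quantity 2 technical SD was 0.39. Grb10 (0.46) and Peg10 (0.51 and 0.49 on its 2 probes) lay above it, 2 of 10 members against 8.56% of genes, and 0 of 10 lay below it against 9.52%. At the dim signal of Peg10 the limit was 0.60, which its values did not reach, whereas that of bright probes such as Grb10 was 0.24. Single probes passed 0.24 in the other direction, with -0.30 for the dimmest Mest probe and -0.26 for the middle Meg3 probe. The members' median was 0.02 and that of all genes 0.05. The TNF differences and the genotype differences are made from the same 4 arrays, so their values are given side by side and no relation between them is drawn.

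**Figure D3:**
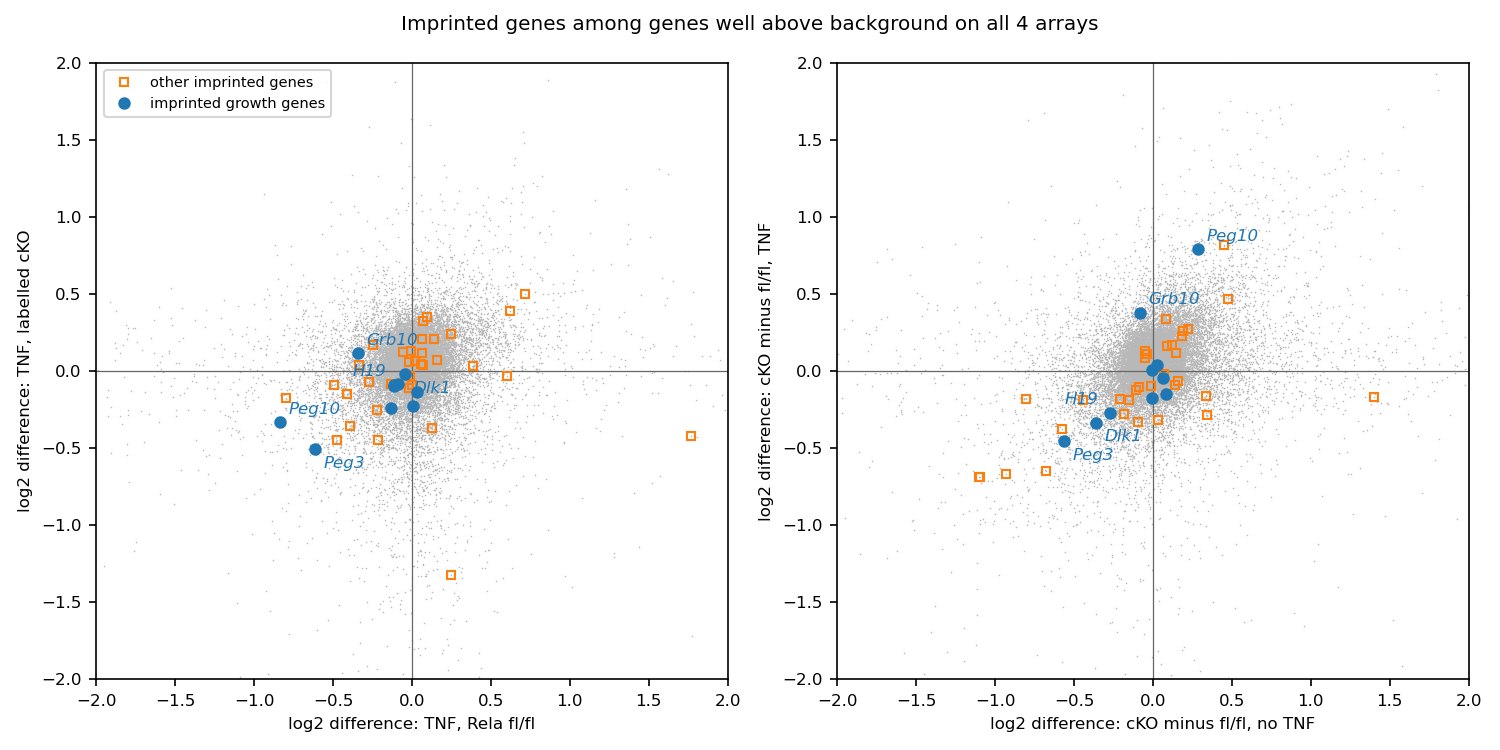
Log2 difference with TNF on the cKO-labelled arrays against that in control cells (left), and genotype difference with TNF against that without TNF (right), for the 20481 genes measured well above background on every array (grey), the imprinted growth genes (filled circles) and other imprinted genes (open squares). The axes stop at 2 in either direction, which leaves out 244 genes on the left and 221 on the right; Peg3 lies in the lower left of both panels and Peg10 in the upper right of the right panel.

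Chondrocyte markers moved with the genotype beside H19, Dlk1 and Peg3. By more than 2 technical SD, 7 of 10 chondrocyte markers were lower on the cKO-labelled array without TNF, 6 of 10 with TNF, and 0 were higher. Beside these and the counts below, 10.6% and 9.66% of genes were lower, and 13.7% and 13.9% higher, without and with TNF. Among the chondrocyte markers counted as lower, Acan, Col9a1 and Col11a2 each had a spot in a patch. Matn1, a cartilage matrix protein, was lower by -1.86 and -1.19, whereas Col2a1 differed by -0.03 and -0.01. With TNF in control cells, 4 of 10 chondrocyte markers were lower and 0 higher, with a median of -0.22, and on the cKO-labelled arrays 0 were lower and 1 higher, with a median of 0.05. Beside these counts, 9.54% and 9.31% of genes were lower and higher in control cells, and 10.4% and 10.3% on the cKO-labelled arrays. The summed signal of the list was 1624 and 1547 in control cells without and with TNF and 1280 and 1306 on the cKO-labelled arrays. Of 7 fibroblast-like markers, all well above background, 3 were lower without TNF and 4 with TNF, and their summed signal ran from 572 to 657. Of 6 proliferation genes, 3 were higher on the cKO-labelled array without TNF and 4 with TNF, with summed signals of 40.4 and 40.2 in control cells and 45.3 and 52.1 on the cKO-labelled arrays. Of the 6 adipocyte markers, 6 were well above background on at least 1 array, and they differed in direction. Among those well above background on all arrays, 1 was higher by more than 2 technical SD on the cKO-labelled array without TNF and 2 with TNF, and 0 were lower. Cebpa differed by 0.18 and 0.50 and Fabp4 by 0.13 and -0.19. Pparg was higher on the cKO-labelled arrays by 0.87 and 1.26, with its spot in patches on 3 arrays. Adipoq was at least 6.73-fold lower there without TNF and differed by -2.30 with TNF, and Plin1 was not well above background on either cKO-labelled array. Lpl differed by -0.21 and -0.06. The leukocyte list (5 of 6 measured genes well above background) summed to between 35.6 and 44.4 on the 4 arrays, most of it Itgam (31.8 to 40.4). Within it, Lyz2 differed by -2.11 and Adgre1 by 2.87 between the genotypes without TNF, and Lyz2 by -1.42 with TNF in control cells, each with a spot in a patch on its brightest array. The muscle list summed to between 2.001 and 3.05. Of its 2 genes well above background on all 4 arrays, Acta1 was higher on the cKO-labelled arrays by 0.54 and 0.53, and Tnnt3 by 0.17 and 0.41. The endothelial list summed to between 17.7 and 20.7. The part of these markers and of sex in the differences of the imprinted genes was not tested, and in bulk RNA fewer cells of a type and less RNA per cell cannot be told apart.

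Other imprinted genes were read on the same arrays from a list of 44, of which 43 had a probe, 39 were well above background on at least 1 array and 34 on all 4. The probes of 15 of the 43 had a spot in a patch. With TNF in control cells, 1 of 37 passed 2-fold upward and 0 downward, beside 6.66% of all genes either way. On the cKO-labelled arrays, 0 of 38 passed upward and 2 downward, beside 5.03%. Between the genotypes, 2 of 37 were higher and 2 lower by 2-fold without TNF, beside 7.67%, and 0 and 2 of 38 with TNF, beside 4.25%. By more than 2 technical SD, 6 of the 34 were lower and 5 higher with TNF in control cells, beside 9.54% and 9.31% of all genes well above background on all arrays. On the cKO-labelled arrays 6 were lower and 4 higher with TNF, beside 10.4% and 10.3%. Between the genotypes, 7 were lower and 5 higher without TNF, beside 10.6% and 13.7%, and 10 were lower and 3 higher with TNF, beside 9.66% and 13.9%. The list's medians in the 4 comparisons were 0.0079, 0.04, -0.02 and -0.11.

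Igf2, the fetal growth factor that shares its control region with H19, had a signal of 28.6 in control cells, 21.5 with TNF, 15.0 on the cKO-labelled array and 13.5 there with TNF. It was thus lower on both cKO-labelled arrays, by -0.93 and -0.67, in the same direction as H19 and by more. Cdkn1c, an inhibitor of cyclin-dependent kinases that restrains growth, had signals of 75.8, 53.8, 35.5 and 33.4 in the same order. It differed by -1.09 and -0.69 between the genotypes, with its spot in a patch on the control array without TNF. Slc38a4, an amino acid transporter, was lower by -1.10 and -0.69. Igf2r, the receptor that clears IGF2, and Gnas, the stimulatory G protein alpha subunit, differed by no more than 0.13 in size in any comparison (-0.05 and 0.08, and -0.09 and -0.11, between the genotypes). Phlda2 was not well above background on any array. Nnat was well above background only on the cKO-labelled array with TNF, with signals of 0.0324 to 0.0493 over all arrays.

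Some of the other imprinted genes were high on a single array. Usp29, in the Peg3 region, had signals of 0.166, 0.565, 0.145 and 0.109, with the high spot in a patch on the control array with TNF. Kcnq1ot1, a noncoding RNA, had signals of 0.238, 0.283, 0.630 and 0.252. Rasgrf1 was well above background only on the cKO-labelled array without TNF (signal 0.370), at least 7.01-fold higher than in control cells without TNF, with the spot in a patch. Kcnq1 had a signal of 0.0681 in control cells with TNF and was at least 2.30-fold lower on the cKO-labelled array with TNF.

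The plot of the chromosome regions sets members beside other imprinted genes of the same region. Beside Peg10, which differed by 0.79 between the genotypes with TNF, Asb4 differed by 0.82 and Sgce by 0.0090. Ppp1r9a differed by -0.33, inside the 0.42 of dim probes. Pon2 and Pon3, which the plot leaves out, differed by -0.29 and 0.12 there. The spot of Pon2 lay in a patch on the control array with TNF. In the region of Dlk1 and Meg3, Mirg, a host gene of microRNAs, was lower by -0.15 and -0.19 between the genotypes. Dio3, the enzyme that inactivates thyroid hormone, was higher with TNF by 0.72 and 0.50, with its spot in a patch on the cKO-labelled array without TNF. Magel2, near Ndn, was lower on the cKO-labelled arrays by -0.68 and -0.65, with its spot in a patch on the cKO-labelled array without TNF. Snrpn, whose spot lay in a patch on the control array with TNF, differed by 0.03 and -0.32, and Ube3a, in a patch on the cKO-labelled array without TNF, by 0.09 and 0.16. Zim1, beside Peg3, was lower with TNF by -0.48 and -0.45, in the direction of Peg3. Klf14, in the Mest region, was lower on the cKO-labelled arrays by -0.58 and -0.38, the latter inside the 0.42 of dim probes. Copg2 differed by -0.11 and -0.12. Ddc, beside Grb10, was lower with TNF in control cells by -0.80. On the cKO-labelled arrays it differed by -0.17, inside the 0.42 of dim probes.

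**Figure D4:**
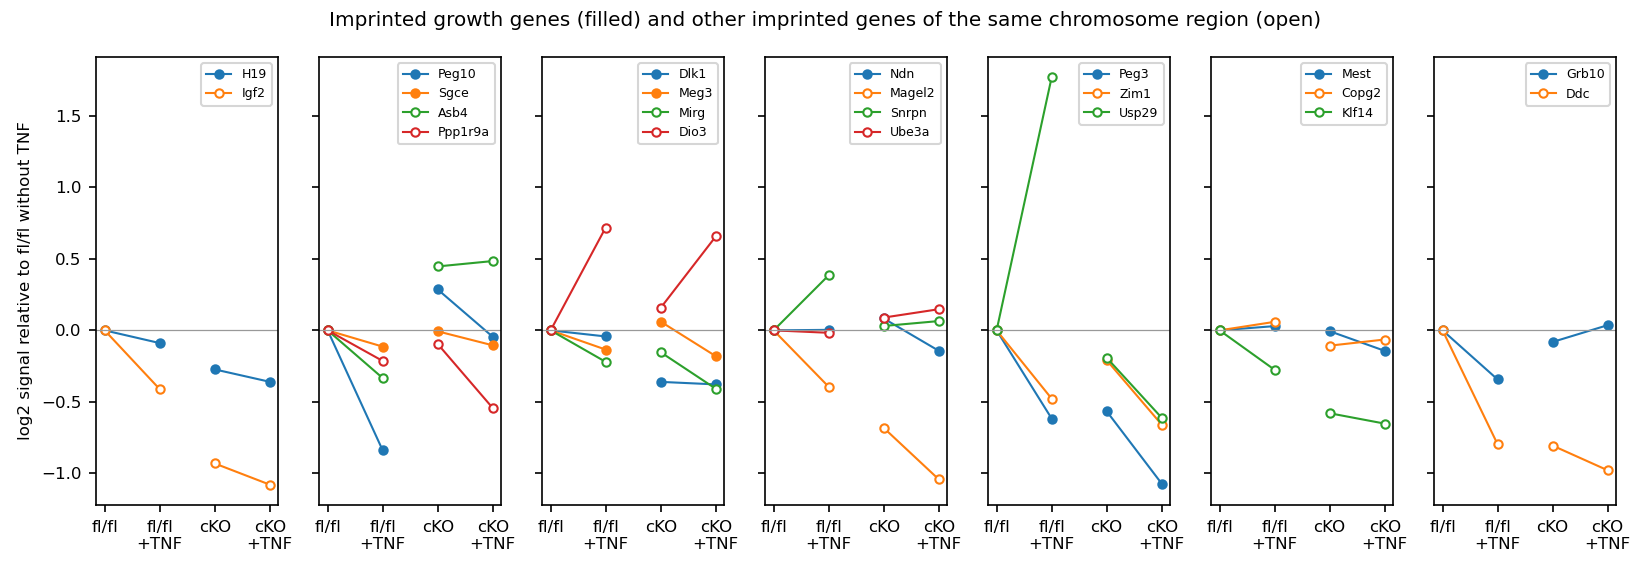
Log2 signal relative to the control array without TNF for imprinted growth genes (filled circles) and other imprinted genes of the same chromosome region (open circles), 1 array per group, with lines joining the arrays without and with TNF of a genotype. Igf2 drops further than H19 on the cKO-labelled arrays, Peg10 and Sgce part with TNF in control cells, and the high Usp29 point comes from a spot in a bright patch.

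Across the 24 probes, the cKO-labelled array with TNF was the lowest for 17 and the control array with TNF for 7, and no array without TNF was the lowest for any. Over the 26894 probes measured well above background on every array, these arrays were the lowest for 19.1% and 23.1%. With the authors' scaled values the members' counts were 19 and 5, beside 34.7% and 26.8% of all these probes. With TNF, 22 of 24 probes were lower in control cells and 23 of 24 on the cKO-labelled arrays, of which 7 and 7 passed 2 technical SD. Of the 20481 genes measured well above background on every array, 47.5% and 36.8% were lower, and 9.54% and 10.4% passed that limit. Probes of a gene read the same RNA, so these counts are not over independent values.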

How the data were processed

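Chondrocyte RNA was hybridised to 4 one-colour arrays, 1 per group, and groups were taken from the labels. The authors deposited spot intensity values from Agilent Feature Extraction 10.10.1.1, which had subtracted the background and detrended each array, and a table of the same intensity times 1 factor per array (1.77 to 1.83), whose basis is not given in the sources used here. From the deposited intensity, log2 values were taken and the 75th percentile of each array's 59305 transcript spots was subtracted (589 to 633 intensity units). Outlier spots were left out, and spots of 1 probe were averaged. The probe with the highest mean stood for its gene in counts over genes. A gene was counted past 2-fold when its brighter array was well above background, and dimmer signals were floored at the lowest signal so marked on their array. Of 55681 probes, 27235 matched a RefSeq symbol (GRCm38.p6), whereas the array files name another assembly, so no gene coordinates were taken over. Promoter windows are those of RefSeq with their own build.

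The members and the gene lists were chosen with earlier results of these data known, and the technical limits by signal and by spot and the lowest array under other scalings were added after the values had been seen. Named other imprinted genes were those past a log2 difference of 1, 6 genes named whatever their values, and genes of the members' chromosome regions, the last of which were chosen after their values had been seen. The lists were other imprinted, chondrocyte, fibroblast-like, leukocyte, endothelial, muscle, adipocyte and proliferation genes. Alternatives covered scaling, background, filter, probe summary, patches and fold limit. A spot was counted in a patch on an array by its neighbours within 5 rows and 2 columns. At least 3 of them had to exceed every other array by 2-fold or more there. The spot itself need not be bright. Counting was tested on simulated data. Python 3.11.15, numpy 2.4.6, pandas 2.3.3, matplotlib 3.10.9 and R 4.3.3 with limma 3.58.1 (normexp with offset 50, quantile) were used.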

Additional observations from a re-analysis of the deposited data

Results flagged for a closer look

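Mest, Grb10 and Ndn were singled out because their difference with TNF had opposite signs in the genotypes, a contrast that was not tested because each group has 1 array. The log2 difference of Mest was 0.030 in control (Rela fl/fl) cells and -0.14 on the cKO-labelled arrays, from its brightest probe, while its other 2 probes were lower with TNF in both. That of Grb10 was -0.34 and 0.12, and that of Ndn was 0.0035 and -0.23. Under the alternatives, Mest in control cells ran from -0.07 to 0.04 and Ndn from -0.05 to 0.01, so the opposite signs of these genes were not kept under all of them. Grb10 ran from -0.41 to -0.33 in control cells and from 0.0074 to 0.12 on the cKO-labelled arrays.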

How the results depend on the processing

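No member passed 2-fold under any alternative of scaling, background, filter, probe summary or patches, nor at 3-fold. With a 1.5-fold limit, 2 members passed with TNF in control cells and 1 between the genotypes with TNF. Of 240 member values under alternatives other than the filter, which could not move them, 231 stayed within 1 technical SD of the reported value and 9 did not, and 0 differences larger than that SD changed sign. The 9 were Peg10 with normexp background (-0.55 with TNF in control cells and 0.57 between the genotypes with TNF) and Meg3, whose difference with TNF on the cKO-labelled arrays was -0.24 but -0.41 after quantile normalization, -0.42 as a mean over probes and -0.59 with patches left out. Meg3 also differed by -0.31 with TNF in control cells and by -0.12 and -0.40 between the genotypes without and with TNF when patches were left out, and by -0.21 between the genotypes with TNF as a mean over probes. The values without patches are those of the dimmest Meg3 probe, since the other probes had a spot in a patch. For the other settings the cause was not tested. Values near 0 of Mest, Ndn, Meg3, Plagl1 and Sgce changed sign under some alternatives, and those of the other members under none. The members' median between the genotypes with TNF was -0.10, and ran from -0.18 as a mean over probes to -0.06 with normexp. Without TNF it was -0.0063, and ran from -0.06 with patches left out to 0.04 without scaling. Low signal over background limits Peg10, whose probes lie under the 75th percentile of every array. Over all genes, the count past 2-fold with TNF in control cells was 1559, against 1003 with normexp, 528 with the filter applied to both arrays, 3707 without a filter and 218 with patches left out. In the same order the counts were 1253, 554, 582, 3674 and 389 on the cKO-labelled arrays, 1863, 1048, 742, 4228 and 394 between the genotypes without TNF, and 1042, 498, 468, 3656 and 367 with TNF. The share of higher genes among those past 2-fold with TNF on the cKO-labelled arrays was 15.1%, and 25.6% after quantile normalization, 10.1% without scaling, 9.95% with the authors' scaled values, 10.8% with normexp, 36.8% without a filter and 30.1% with patches left out. Without a filter and with patches left out it was 54.7% and 58.6% between the genotypes without TNF (45.7% as reported), and 57.9% and 53.7% with TNF (27.4% as reported). Arrays could not be paired by replicate because each group has 1 array and the labels carry no replicate numbers. For the same reason no replicate could be left out.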
